A study of Mus musculus with 8 samples.

Results

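The genes described here encode the subunits of oxidative phosphorylation that are carried in the nucleus. They were taken by name from the 28956 gene symbols of the count tables, as every symbol that begins with Ndufa, Ndufb, Ndufc, Ndufs, Ndufv, Sdh, Uqcr, Cox4, Cox5, Cox6, Cox7, Cox8 or Atp5 or that equals Cyc1 or Cycs. The 7 complex I assembly factors that begin with Ndufaf and 1 pseudogene name were left out. This gave 90 names, which held 1.83% of all UMIs (unique molecular identifiers, each standing for a captured transcript). Of these, 85 are subunits: 36 of complex I, 4 of complex II, 9 of complex III, 20 of complex IV and 15 of complex V, with Cycs, which encodes cytochrome c. Ndufa4 and its paralogue Ndufa4l2 carry names of complex I, but were placed with complex IV, where the Ndufa4 protein is found. The other 5 names are no subunits (Sdhaf1 and Sdhaf2, assembly factors of complex II, with Atp5s, Atp5sl and Atp5l2) and appear in the totals of all names only.

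The cells were stromal cells of bone, depleted of blood cells with antibody-coated beads, from 12-week-old female C57BL/6 mice. In the Fracture group the left leg had been broken by three-point bending at 10 weeks of age under ketamine and xylazine, stabilised with an intramedullary nail, treated with the analgesic carprofen, and taken at day 14. Control mice were wild type and had no fracture. Each group held 2 preparations with 2 libraries each (8 libraries in all), and the libraries of a preparation were added, so that n = 2 per group. The sources used do not say whether a preparation came from 1 animal or from several, so the p-values below measure the spread between preparations, which may be partly technical.

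Oxidative phosphorylation is the last stage of respiration in the mitochondrial inner membrane. Complex I takes electrons from NADH and complex II takes them from succinate, complex III passes them to cytochrome c, and complex IV hands them to oxygen. Complexes I, III and IV pump protons, and complex V, the ATP synthase, uses their return to make ATP. Complexes I, III, IV and V are built from subunits of both genomes, while every subunit of complex II is nuclear. In bone, chondrocytes live in tissue without vessels and are known for glycolytic metabolism, whereas vascular smooth muscle and differentiating osteoblasts are known to draw on respiration as well.

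Nuclear genes of respiration are known targets of the transcription factors NRF1 and GABP, so their promoters are shown before the values. RefSeq promoter windows of 300 bases, from 250 before to 50 after a gene's start (build GRCm38.p6), were found for 73 of the 90 names. The palindromic NRF1 motif stood in 5 of them (6.85%) against 1.07% of the 27025 promoters of all genes. The core of ETS factors such as GABP, CCGGAAG, stood in 18 (24.7%) against 9.93%, and the core of the hypoxia response element, ACGTG, in 21 (28.8%) against 21.8%. The TATA box, TATAAA, stood in 7 (9.59%) against 15.7%. Both strands were searched. These windows were also richer in G and C, with a median of 58.3% against 52.7% over all promoters. Below are the 200 bases before the start of 3 of the 5 genes with an NRF1 site, 1 of complex V, 1 of complex IV and 1 of complex I. Each is read along the gene, with motif matches in capitals.
Atp5k (complex V), chr5:108434400-108434599, minus strand: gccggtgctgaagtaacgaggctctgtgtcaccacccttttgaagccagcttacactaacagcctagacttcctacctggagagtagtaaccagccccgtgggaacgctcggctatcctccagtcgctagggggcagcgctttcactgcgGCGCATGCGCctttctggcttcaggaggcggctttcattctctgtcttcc
Cox6a1 (complex IV), chr5:115348959-115349158, minus strand: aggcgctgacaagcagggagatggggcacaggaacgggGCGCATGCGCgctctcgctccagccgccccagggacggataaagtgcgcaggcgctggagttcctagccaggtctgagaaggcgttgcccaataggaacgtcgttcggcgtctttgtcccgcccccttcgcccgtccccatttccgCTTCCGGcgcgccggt
Ndufa11 (complex I), chr17:56717562-56717761, plus strand: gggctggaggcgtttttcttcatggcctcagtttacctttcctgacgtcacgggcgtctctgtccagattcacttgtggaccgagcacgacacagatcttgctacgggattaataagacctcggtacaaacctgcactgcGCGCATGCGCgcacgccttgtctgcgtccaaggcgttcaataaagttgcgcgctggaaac
The NRF1 match began 50 bases before the start of Atp5k, 162 before that of Cox6a1 and 60 before that of Ndufa11. The second match in capitals in Cox6a1, at 16 bases before the start, is the ETS core on the other strand. A match of letters is no measured binding.

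The libraries held 56543151 to 89126291 UMIs, and 45390 of 48903 barcodes passed the filters of the published methods. The preparations held 12755 and 7958 Control cells and 11875 and 12802 Fracture cells, and their libraries shared 13 to 23 barcodes. Clusters built without the genes compared here were named from marker lists as chondrocyte-like (2 clusters), osteoblast-like, BMSC-like (bone mesenchymal stromal cells), fibroblast-like, endothelial-like and smooth muscle-like. Erythroid-like, granulocyte-like and megakaryocyte-like blood clusters remained beside them. Every cluster carried at least 5 markers of its name, but the summed markers of a class were lower in both Fracture preparations in 5 of the 6 stromal classes, all except chondrocyte-like cells. In BMSC-like cells they made up 26089 and 28101 CPM in the Control but 1940 and 2265 CPM after fracture. CPM are UMIs normalised to the total of the class in a preparation. Osteoblast markers stood there at 9086 and 7925 against 9485 and 9998 CPM, and chondrocyte markers at 633 and 273 against 2962 and 2942 CPM. After fracture both exceeded the class's own markers, so the name rests mainly on Control cells. Fracture results for this class may therefore compare unlike cells, which was not tested. No symbol beginning with a capital U had an entry in either library of Control preparation 1, while these 290 symbols took 1.26% to 1.47% of the UMIs elsewhere. The 8 Uqcr genes of complex III were therefore treated as not measured there, and all 290 symbols were kept out of totals and tests, a choice made after the files were seen.

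Complex V and complex IV had the highest levels per gene. UMIs counted at the 3′ end do not scale with transcript length, so the CPM of different genes are set side by side here, with the reserve that capture can differ between them. The median of the mean levels over the 6 stromal classes was 358 CPM for the 15 genes of complex V, 285 CPM for complex IV, 218 CPM for complex III, 151 CPM for complex I and 97.3 CPM for complex II, and Cycs stood at 55.5 CPM. The gene with the highest mean was Cox4i1 in complex IV (876 CPM), Atp5e in complex V (636 CPM), Uqcrh in complex III (583 CPM), Ndufa13 in complex I (452 CPM) and Sdhb in complex II (112 CPM). Cox4i1 is the common form of the regulatory subunit IV, Atp5e the epsilon subunit of the ATP synthase, Uqcrh the hinge protein and Sdhb the iron-sulphur subunit of succinate dehydrogenase. At the other end were the tissue-restricted forms of complex IV, with Cox7b2 at a mean of 0.04 CPM. Ndufb4 (12.9 CPM) had the lowest mean of complex I, and Atp5g2 (4.93 CPM) and Atp5l (18.0 CPM) the lowest of complex V. Where a gene has near-identical copies, the counting can lose or split its reads. This was not checked here, and these 3 values are uncertain.

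Among the 6 stromal classes, smooth muscle-like cells held the most of these transcripts. The sum over the 82 names measured in all 4 preparations was 22965 ± 1541 CPM (SD over the 4 preparations) in smooth muscle-like cells, from 20959 to 24620 CPM, and did not overlap with any other stromal class. It was followed by BMSC-like (17475 ± 2869 CPM), endothelial-like (15769 ± 1374 CPM), fibroblast-like (15554 ± 1045 CPM), chondrocyte-like (14613 ± 853 CPM) and osteoblast-like cells (14274 ± 1189 CPM), and the ranges of neighbours in this order overlapped. The order is that of the mean over both groups: endothelial-like and fibroblast-like cells changed places between Control and Fracture, as did chondrocyte-like and osteoblast-like cells. Of the 90 names, 71 had their highest mean in smooth muscle-like cells, and for 19 of them no preparation of another class reached the lowest smooth muscle-like value. The same was not counted over all genes, so neither count sets the members apart from other genes. Among the 19 the widest margin was that of Sdhc, a membrane anchor of complex II. It stood at 157 CPM against 84.0 CPM in endothelial-like cells, the next class. It was followed by Cox8a, the common form of subunit VIII, at 1298 against 734 CPM. A few genes stood apart elsewhere without overlap. Ndufa1 of complex I was highest in osteoblast-like cells (346 against 228 CPM). Cox7a2l of complex IV and Ndufc2 of complex I were highest in endothelial-like cells (131 against 94.1 CPM and 358 against 283 CPM). For Ndufc2 the lowest endothelial-like value was 325.87 CPM, against 325.81 CPM as the highest elsewhere. Cox8c, known as a testis form, was found in chondrocyte-like cells at 2.24 CPM against 0.157 CPM in the next class. The classes are clusters of these same cells, so no class was tested against another for its level.

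Between Fracture and Control the summed level was higher in both Fracture preparations than in both Control preparations in 5 of the 6 classes. BMSC-like cells held 15230 and 14809 CPM in the Control against 19430 and 20430 CPM, a log2 ratio of 0.41. The log2 ratio was 0.21 in endothelial-like cells (14484 and 14739 against 16554 and 17298 CPM) and 0.20 in osteoblast-like cells (13598 and 12998 against 14900 and 15600 CPM). It was 0.13 in fibroblast-like cells (14225 and 15437 against 15801 and 16753 CPM) and 0.12 in chondrocyte-like cells (13651 and 14391 against 14700 and 15708 CPM). The gap between the groups was narrow in these last classes, where it was smaller than the gap between the preparations of a group. The groups overlapped in smooth muscle-like cells, with 24620 and 22753 CPM against 20959 and 23529 CPM (−0.09). The tests that follow scale by TMM, which adds to every gene's log2 ratio 0.18 in BMSC-like, 0.15 in chondrocyte-like, 0.12 in endothelial-like, 0.08 in fibroblast-like and 0.02 in smooth muscle-like cells, and takes 0.08 from it in osteoblast-like cells. Scaled that way, the sums differed by 0.59, 0.27, 0.33, 0.21, −0.08 and 0.12 in the same order.

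**Figure D1:**
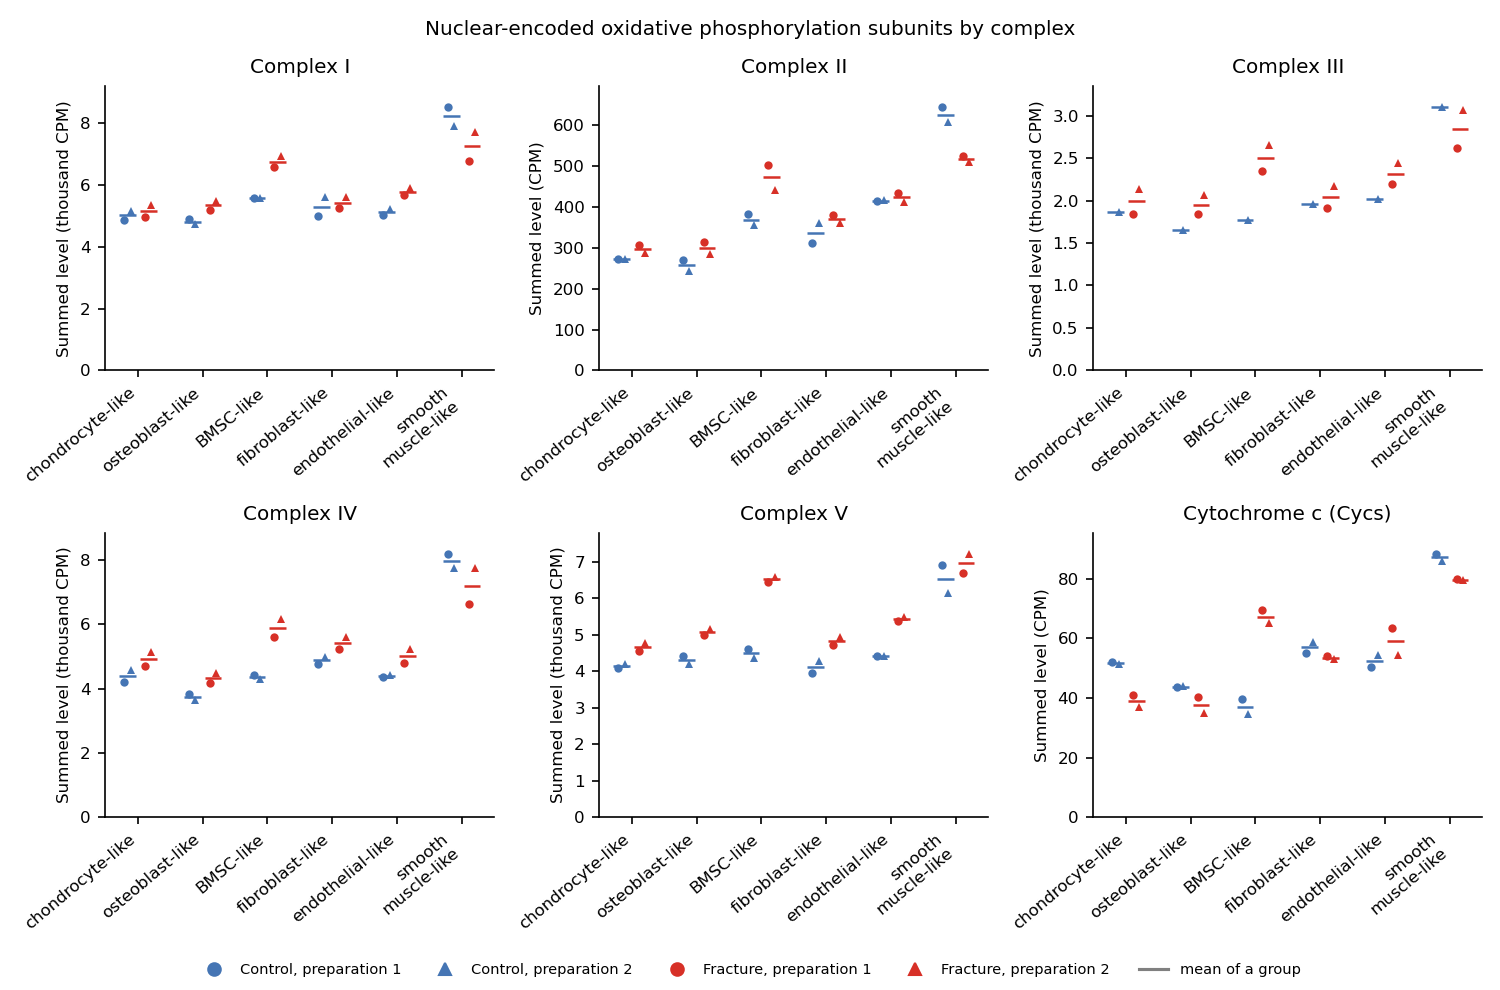
Summed plain CPM of the nuclear-encoded subunits of each complex in 6 cell classes, with 1 point per preparation (circles preparation 1, triangles preparation 2, blue Control, red Fracture) and a bar at each group's mean. The red points of complex V lie above the blue points in every class other than smooth muscle-like cells, and complex III has no point for Control preparation 1.

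Gene by gene, members rose in far larger numbers than they fell in BMSC-like, endothelial-like and chondrocyte-like cells. Few rose in smooth muscle-like cells, where the share that fell was close to that of all genes. Of the 82 names measured in all 4 preparations, 80 had enough counts to be tested in at least 1 class and 74 in all 6. In BMSC-like cells 54 rose and 1 fell of 77 tested, where 28.0% of all genes tested rose and 28.7% fell (56.7% called), and the median log2 fold change of the members was 0.53 against −0.04 over all genes. In endothelial-like cells 33 rose and 1 fell of 76, beside 21.8% and 19.5% of all genes (41.3% called), with a median of 0.30 against 0.00. In chondrocyte-like cells 29 rose and 3 fell of 80, beside 23.6% and 21.7% (45.4% called), with a median of 0.20 against −0.01. This class joins 2 clusters, of which the first held 1155 and 392 Control and 5608 and 5878 Fracture cells and the second 929 and 296 against 1214 and 1275. In the first alone 22 rose and 7 fell of 80 (39.1% of all genes called), and in the second 16 rose and 1 fell of 78 (23.6% called). The share of members that rose was above that of all genes in these 3 classes. In chondrocyte-like cells and in both of their clusters the share called in either direction was below that of all genes. For the whole chondrocyte-like class that order depended on the fit. It turned with a replicate block (45 of 80 members, 7503 of 17062 genes) and without a low-count filter (50 of 82, 8329 of 24998). It stayed with called doublets removed (33 of 80 members, 7879 of 16970 genes).

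In the other 3 classes fewer members were called. In osteoblast-like cells 6 rose and 4 fell of 78, beside 14.8% and 12.3% of all genes (27.1% called), and the median was 0.09 against −0.02. In fibroblast-like cells 5 rose and 1 fell of 76, beside 11.7% and 11.2% (22.9% called), with a median of 0.19 against −0.02. In smooth muscle-like cells 2 rose and 12 fell of 75, beside 18.2% and 16.3% (34.5% called), with a median of −0.10 against −0.01. The share of members called in either direction was below that of all genes in these 3 classes as well. Over all classes 58 members rose and 17 fell in at least 1 class, 6 were called both ways, and 24 rose in 3 or more classes. These pooled counts were not made over all genes, so they have no background to be read against. The fracture effect itself differed between classes for 69 of the 80 members in the joint test of class by group, beside 61.8% of all genes. That count was much lower without either Fracture preparation.

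These counts changed when a Fracture preparation was left out, which leaves 1 in that group. In chondrocyte-like cells the calls over all genes fell as well, so a drop is not particular to the members. In every class fewer members were called without Fracture preparation 1, and also without Fracture preparation 2. Counts of such fits are not set beside those of the full fit. In every class and each of these fits the called members kept their direction. These fits reuse preparations that made the calls, so a kept direction is no independent evidence. In BMSC-like cells most of the 55 called members were called in each of these fits too. Clustering without integration over the libraries put only 78 and 105 Fracture cells in the BMSC-like cluster, in place of 1053 and 1131. Then 10 members were called, while 52 of the 55 kept their direction. The share of all genes called in that clustering is not given beside this count.

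**Figure D2:**
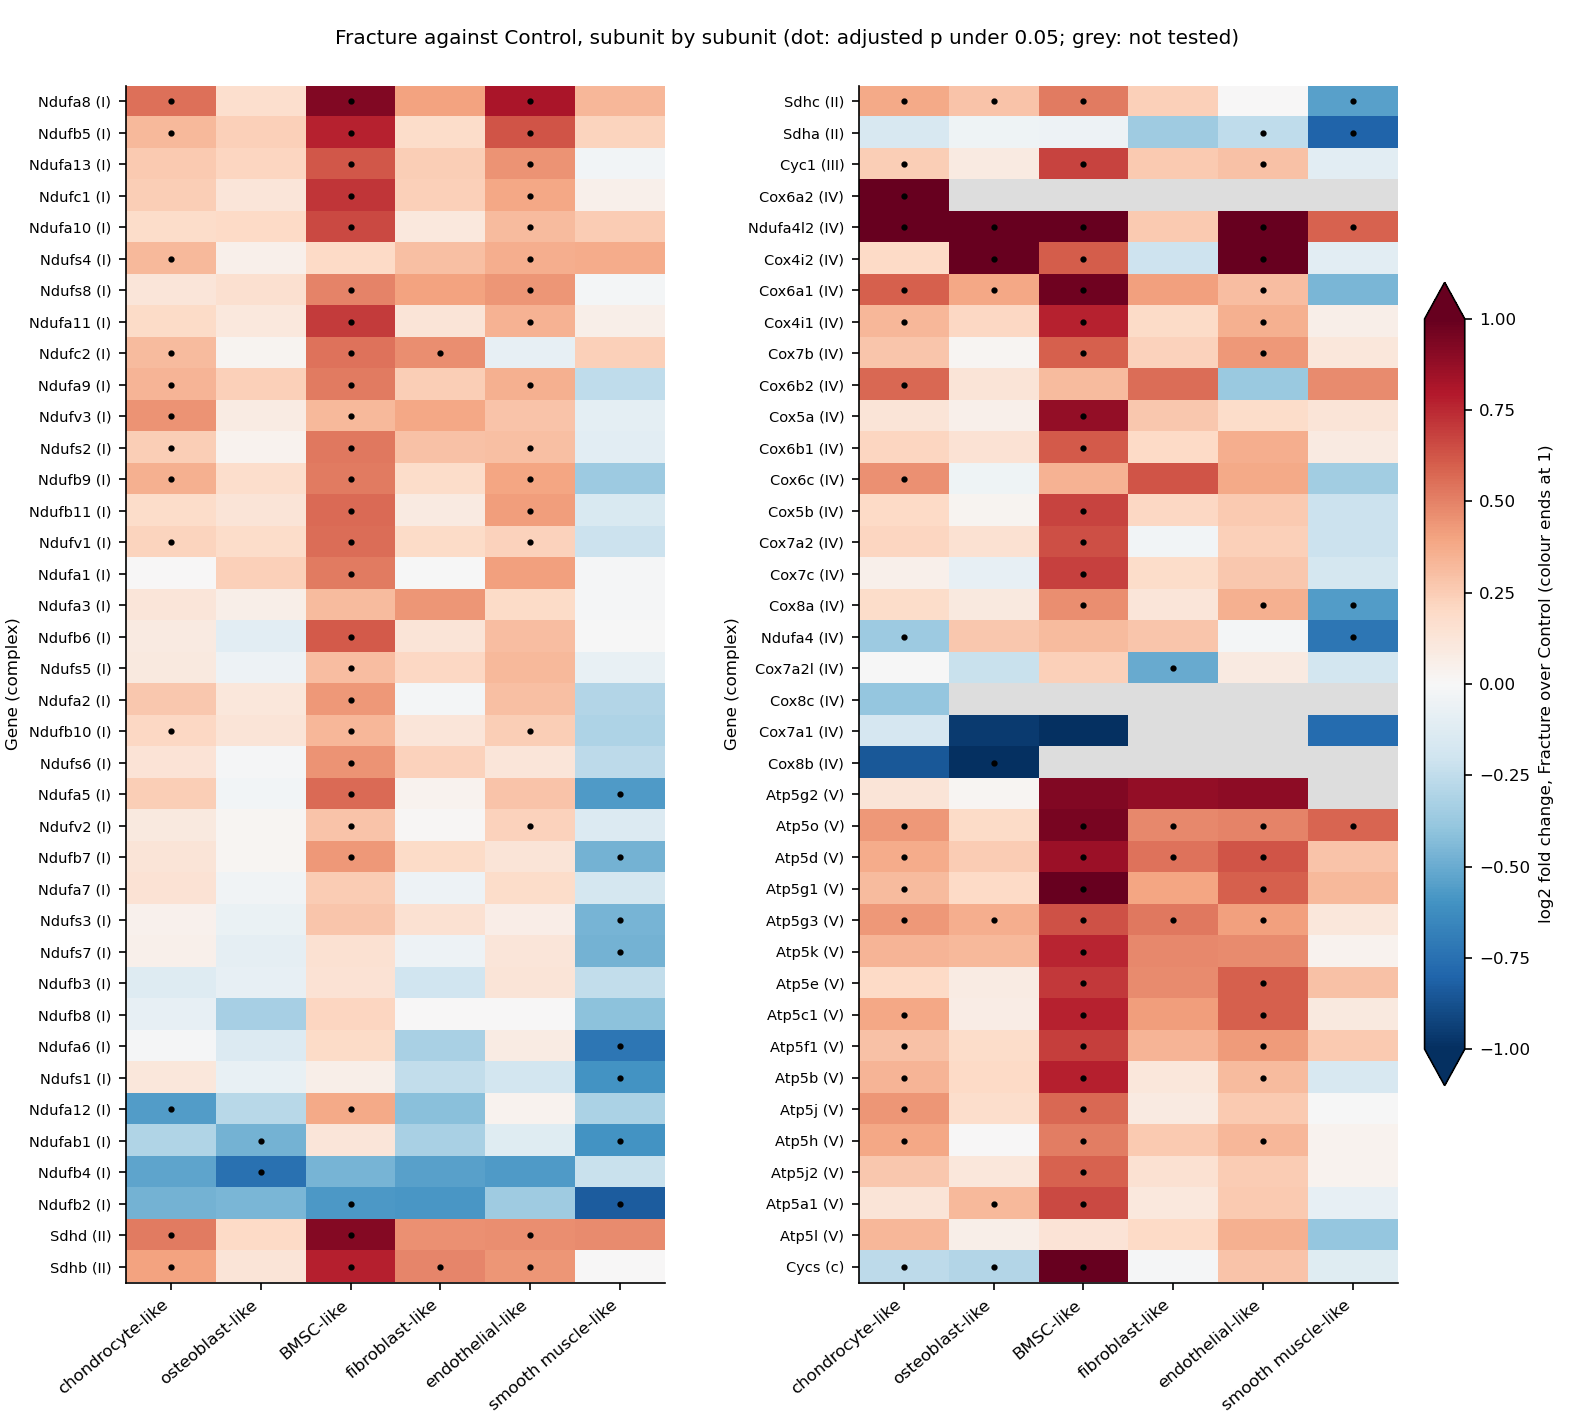
Log2 fold change of each tested subunit, Fracture over Control, by class (columns), with the complex in brackets, red for higher and blue for lower in Fracture, grey where not tested and a dot where the adjusted p of edgeR was under 0.05. The columns of BMSC-like and endothelial-like cells are red for nearly all genes, complex V is red in 5 classes, and most dots in the smooth muscle-like column stand on blue.

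Complex I, the NADH dehydrogenase, was called in opposite directions in different classes. Of its 36 subunits 24 rose in BMSC-like cells, 15 in endothelial-like cells and 10 in chondrocyte-like cells, beside 28.0%, 21.8% and 23.6% of all genes, so the chondrocyte-like count was near the background. In smooth muscle-like cells none rose and 8 fell, beside 18.2% and 16.3% of all genes, and the count of falls was again near the background. Ndufa8, an accessory subunit of the membrane arm, was at 271 and 256 normalised CPM (scaled by TMM) in Control endothelial-like cells and at 483 and 443 after fracture (log2 fold change 0.82 ± 0.09, SE, adjusted p = 0.00191). It also rose in BMSC-like cells, from 130 and 118 to 249 and 222 normalised CPM (0.93), and in chondrocyte-like cells, from 185 and 182 to 279 and 257 normalised CPM (0.55). The groups were well apart in all 3 classes. Ndufb5, of the same arm, rose from 203 and 186 to 310 and 294 normalised CPM in endothelial-like cells (0.63). Ndufa13, the member of complex I with the highest level and also known as the cell death regulator GRIM-19, rose from 389 and 397 to 562 and 645 normalised CPM in BMSC-like cells (0.62) and from 252 and 264 to 333 and 371 in endothelial-like cells (0.45).

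The complex I subunits that fell belonged to several of its parts. In smooth muscle-like cells these were Ndufs1, Ndufs3 and Ndufs7, catalytic core subunits of the arm that takes up electrons, with the accessory subunits Ndufa5, Ndufa6, Ndufab1, Ndufb2 and Ndufb7. Ndufa5 was at 321 and 327 normalised CPM in the Control and at 199 and 238 in the Fracture preparations (−0.57 ± 0.15, adjusted p = 0.0135), while in BMSC-like cells it rose from 134 and 153 to 184 and 241 normalised CPM (0.56). Ndufb2 fell from 56.5 and 59.4 to 28.2 and 36.3 normalised CPM in smooth muscle-like cells (−0.84 ± 0.19, adjusted p = 0.00738). It was the single member to fall in BMSC-like cells, from 54.3 and 68.5 to 35.5 and 46.8 (−0.57). Its fold change was below 0 in all 6 classes, and its exons overlap other annotated genes. Ndufab1, the mitochondrial acyl carrier protein, fell from 76.2 and 89.4 to 57.2 and 62.2 normalised CPM in osteoblast-like cells (−0.47 ± 0.10, adjusted p = 0.00686). Ndufa12 fell in chondrocyte-like cells, from 52.8 and 66.0 to 36.3 and 43.5 normalised CPM (−0.56), and rose in BMSC-like cells (0.38). In the sums, complex I went from 36.6% and 37.6% of the members' UMIs in BMSC-like Control preparations to 33.8% and 34.0% in Fracture.

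Complex II is succinate dehydrogenase, shared with the tricarboxylic acid cycle, and its 4 subunits did not move together. Sdhb, Sdhc and Sdhd all rose in chondrocyte-like and BMSC-like cells, while Sdha, the flavoprotein that oxidises succinate, rose in none. In BMSC-like cells Sdhd, a membrane anchor, went from 75.1 and 69.5 to 150 and 123 normalised CPM (0.92) and Sdhb from 97.3 and 84.3 to 167 and 144 (0.78). In the same cells Sdha was at 117 and 112 normalised CPM in the Control and at 109 and 112 in the Fracture preparations (−0.05 ± 0.08, adjusted p = 0.607). Sdha fell in smooth muscle-like cells, from 197 and 183 to 106 and 113 normalised CPM (−0.80 ± 0.14, adjusted p = 0.00162). It also fell in endothelial-like cells, from 144 and 140 to 115 and 123 normalised CPM (−0.25, adjusted p = 0.0382), a call that was lost in several alternative fits, such as DESeq2 (adjusted p = 0.127). Sdhc fell in smooth muscle-like cells, from 191 and 186 to 124 and 135 normalised CPM (−0.54 ± 0.14, adjusted p = 0.0123). It was at 82.7 and 85.1 against 84.5 and 84.0 normalised CPM in endothelial-like cells (0.01).

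Of complex III only Cyc1, cytochrome c1, could be tested. It rose in BMSC-like cells from 97.0 and 85.6 to 146 and 146 normalised CPM (0.68 ± 0.09, adjusted p = 0.0012), in endothelial-like cells (0.29) and in chondrocyte-like cells (0.24). The 8 Uqcr genes have values in 3 preparations and no test. In BMSC-like cells Uqcrh was at 425 CPM in Control preparation 2 and reached 607 and 658 CPM after fracture. The others of the 8 were also higher in both Fracture preparations of these cells, among them Uqcrq (231 against 341 and 399 CPM), Uqcrc1 (88.8 against 144 and 150 CPM), a core protein, and Uqcrfs1, the Rieske iron-sulphur protein (78.8 against 123 and 117 CPM). Uqcrh of smooth muscle-like cells stood at 746 CPM in Control preparation 2 and at 658 and 748 CPM in Fracture, so the groups overlapped.

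Cycs, the mobile carrier between complexes III and IV that also triggers apoptosis when released, went in opposite directions. In BMSC-like cells it was at 37.4 and 32.5 normalised CPM in the Control and at 73.7 and 69.8 in the Fracture preparations (1.04 ± 0.10, adjusted p = 0.000317). In chondrocyte-like cells it fell from 49.2 and 48.9 to 42.7 and 39.3 normalised CPM (−0.26 ± 0.07, adjusted p = 0.0181), and in osteoblast-like cells from 43.9 and 46.0 to 38.5 and 35.0 (−0.29 ± 0.09, adjusted p = 0.0333). No Fracture value lay within the Control range in any of the 3 classes. It had the smallest p of all members for a difference of the fracture effect between classes (adjusted p = 1.47e-07). The falls were small and were no longer called by DESeq2 (adjusted p = 0.0856 and 0.157) or without either Fracture preparation. Without integration the change in BMSC-like cells was 0.16 (adjusted p = 0.764).

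Several subunits of complex IV, cytochrome c oxidase, have paralogues. The paralogue of Ndufa4, Ndufa4l2 (chr10:127514967-127517154, mm10, plus strand), had the largest change of any member. In endothelial-like cells it was at 7.72 and 4.26 normalised CPM in the Control and at 124 and 83.0 in the Fracture preparations (log2 fold change 4.09 ± 0.30, adjusted p = 0.000797). In BMSC-like cells it went from 17.8 and 13.0 to 155 and 164 normalised CPM (3.36 ± 0.15, adjusted p = 2.66e-05). It also rose in chondrocyte-like cells, from 120 and 263 to 556 and 505 (1.48 ± 0.32, adjusted p = 0.0103), and in osteoblast-like cells, from 33.6 and 34.0 to 76.0 and 64.0 (1.05 ± 0.10, adjusted p = 7.97e-05). The last call among the 6 classes was that in smooth muscle-like cells, from 639 and 850 to 1085 and 1150 normalised CPM (0.59 ± 0.18, adjusted p = 0.0252), which was lost without Control preparation 1 (0.40, adjusted p = 0.0872) and without either Fracture preparation. In fibroblast-like cells it was high in both groups, at 977 and 492 against 991 and 773 normalised CPM (0.26, adjusted p = 0.6). Its exons overlap those of Shmt2 on the opposite strand, and the strand setting of the counting is not stated.

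The level of chondrocyte markers in other classes also differed between the groups. In endothelial-like cells all 7 chondrocyte markers were found, and their sum was 2.87% and 0.787% of the level in chondrocyte-like cells of the same Control preparations, against 16.3% and 16.1% after fracture. Ndufa4l2 stood there at 22.4% and 16.6% of its chondrocyte-like level in Fracture, and Cox4i2 at 16.2% and 14.4%. In BMSC-like cells the markers were at 0.764% and 0.353% in the Control against 3.03% and 3.03% after fracture. Ndufa4l2 was at 14.9% and 5.02% against 27.5% and 32.0% in the same cells. In osteoblast-like cells, where Ndufa4l2 rose too, the markers were lower after fracture, at 3.91% and 3.58% against 2.33% and 2.23%. Ndufa4l2 stood at 26.2% and 11.8% against 15.0% and 13.5% of its chondrocyte-like level there. The part of chondrocyte RNA in these changes was not tested. Without integration the change of Ndufa4l2 in BMSC-like cells was 0.86 (adjusted p = 0.147).

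As a share of the pair, Ndufa4l2 overtook Ndufa4 in chondrocyte-like cells. It made up 22.6% and 41.9% of the pair's UMIs in the Control and 66.3% and 61.2% in the Fracture preparations. In smooth muscle-like cells the share was 54.2% and 73.6% against 82.9% and 79.7%, and in fibroblast-like cells 76.2% and 59.7% against 73.4% and 65.3%. It was lower in BMSC-like (2.97% and 2.5% against 19.4% and 18.6%), endothelial-like (1.2% and 0.688% against 17.5% and 11.3%) and osteoblast-like cells (8.98% and 10.0% against 17.1% and 13.5%). The groups overlapped in fibroblast-like cells and in no other class. Ndufa4 itself fell in chondrocyte-like cells, from 411 and 366 to 283 and 320 normalised CPM (−0.37 ± 0.09, adjusted p = 0.019). It also fell in smooth muscle-like cells, from 540 and 305 to 224 and 293 normalised CPM (−0.72, adjusted p = 0.0419), but without Control preparation 1 that change was −0.23 (adjusted p = 0.395).

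**Figure D3:**
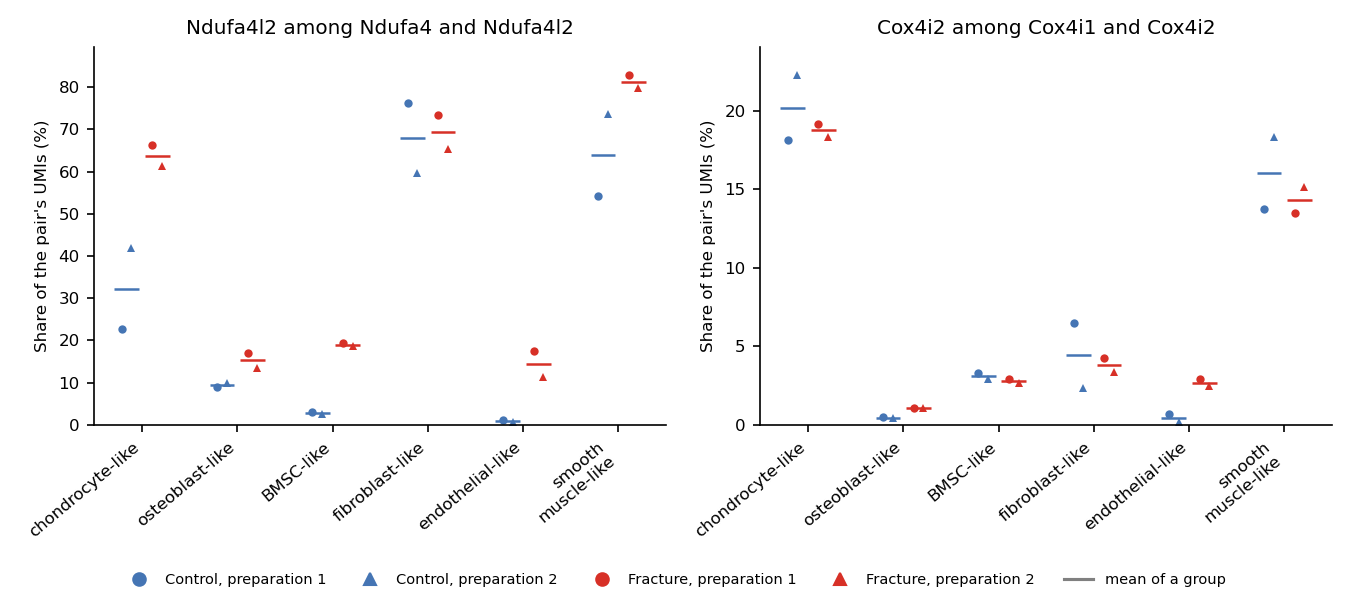
UMIs of Ndufa4l2 as percent of those of Ndufa4 and Ndufa4l2 (left) and of Cox4i2 as percent of those of Cox4i1 and Cox4i2 (right), by class, with 1 point per preparation and a bar at each group's mean. The Ndufa4l2 share is above 60% in both Fracture preparations of chondrocyte-like cells and under 42% in their Control preparations, while the Cox4i2 share of chondrocyte-like cells overlaps between the groups.

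Cox4i2 (chr2:152754173-152765037, mm10, plus strand), the form of subunit IV known from lung and from oxygen-sensing vascular cells, was high in other classes than those where it rose. It stood at 146 and 183 against 196 and 181 normalised CPM in chondrocyte-like cells and at 194 and 220 against 182 and 201 in smooth muscle-like cells, and was called in neither. In endothelial-like cells it went from 5.68 and 1.30 to 31.6 and 25.8 normalised CPM (3.0 ± 0.46, adjusted p = 0.00456), in osteoblast-like cells from 3.75 and 2.74 to 8.83 and 8.69 (1.4 ± 0.17, adjusted p = 0.000384), and in BMSC-like cells from 25.1 and 18.9 to 35.4 and 31.9 (0.61 ± 0.15, adjusted p = 0.0128). These values remained below those of chondrocyte-like cells. In BMSC-like cells its share of the pair was 3.27% and 2.89% in the Control and 2.90% and 2.67% in Fracture, since Cox4i1 rose as well, from 742 and 634 to 1182 and 1165 normalised CPM (0.77).

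Among the common subunits of complex IV, Cox6a1, the liver-type form of subunit VIa whose promoter is printed above, rose in 4 classes. It went from 204 and 202 to 379 and 417 normalised CPM in BMSC-like (0.97), from 256 and 262 to 370 and 411 in chondrocyte-like (0.59), from 315 and 300 to 387 and 420 in osteoblast-like (0.39) and from 252 and 273 to 311 and 337 in endothelial-like cells (0.30). Smooth muscle-like cells held it at 555 and 501 against 332 and 438 normalised CPM (−0.46 ± 0.17, adjusted p = 0.059), and its effect differed between classes (adjusted p = 6.35e-07). Cox8a showed a similar contrast. It fell from 1617 and 1509 to 914 and 1207 normalised CPM in smooth muscle-like cells (−0.56 ± 0.18, adjusted p = 0.0341), whereas it rose in BMSC-like (0.47) and endothelial-like cells (0.36). Cox7a2, Cox7b and Cox6b1 rose in BMSC-like cells, with log2 fold changes of 0.64, 0.60 and 0.61, and of these Cox7b also rose in endothelial-like cells (0.44). Cox7a2l fell in fibroblast-like cells, from 89.2 and 95.2 to 66.8 and 62.5 normalised CPM (−0.51 ± 0.11, adjusted p = 0.0217), and was called in no other class.

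The forms of complex IV known from striated muscle and testis were near 0, apart from Cox6b2. Cox6a2, Cox7a1, Cox7b2, Cox8b and Cox8c each made up at most 1.47% of their isoform group in the stromal classes, with an exception in smooth muscle-like cells of Fracture preparation 1. There Cox6a2 took 39 of 558 UMIs of the Cox6a pair (6.99%, exact binomial 95% interval 5.02% to 9.43%), against 0 of 724 in Fracture preparation 2. Skeletal muscle markers stood at 1016 CPM in the first and 6.54 CPM in the second, and their part in this value was not tested. Cox6a2 was called in chondrocyte-like cells (1.96, adjusted p = 0.0342) on 2 and 3 UMIs in the Control and 33 and 47 in Fracture, all under 1 CPM. Cox8b was called lower in osteoblast-like cells (−2.16, adjusted p = 0.016), also under 1 CPM. Cox7a1 was at 10.2 and 6.94 against 7.04 and 3.63 normalised CPM in smooth muscle-like cells (adjusted p = 0.216). Cox8c was tested in chondrocyte-like cells alone and not called, and Cox7b2 was too low to be tested in any class. Cox6b2, named for testis, reached 4.51% to 6.10% of the Cox6b pair in BMSC-like and 4.54% to 7.64% in smooth muscle-like cells. It rose in chondrocyte-like cells from 4.96 and 4.68 to 6.81 and 7.61 normalised CPM (0.57, adjusted p = 0.00841).

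Complex V gave the most even picture. All 15 of its genes had a fold change above 0 in each of the chondrocyte-like, osteoblast-like, BMSC-like, fibroblast-like and endothelial-like classes, and none fell in any class. In BMSC-like cells 13 of 15 rose (median log2 fold change 0.71), in chondrocyte-like and endothelial-like cells 9 each (0.34 and 0.42), in fibroblast-like cells 3 (0.40) and in osteoblast-like cells 2 (0.18), beside 28.0%, 23.6%, 21.8%, 11.7% and 14.8% of all genes in the same order. The osteoblast-like count was not above that background. The BMSC-like sum of complex V was 4614 and 4364 CPM in the Control against 6460 and 6581 CPM after fracture, or 30.3% and 29.5% against 33.2% and 32.2% of all members' UMIs. Of the 14 tested in smooth muscle-like cells 10 were above 0, 1 rose and none fell, beside 18.2% and 16.3% of all genes that rose and fell. Complexes I, II and IV held 8, 2 and 2 called falls in these cells, and the difference between complexes was not tested.

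The gene of complex V that rose in smooth muscle-like cells was Atp5o, the subunit of the stalk that confers sensitivity to oligomycin, which rose in every class except osteoblast-like cells. It went from 341 and 295 to 471 and 483 normalised CPM in smooth muscle-like cells (0.58 ± 0.15, adjusted p = 0.0119), though its exons overlap those of Donson on the same strand, and the call was lost without Control preparation 2 or either Fracture preparation. In BMSC-like cells Atp5o went from 267 and 245 to 511 and 476 normalised CPM (0.95). Subunit c, which forms the turning ring, is encoded by Atp5g1, Atp5g2 and Atp5g3. Atp5g1 had the largest rise of complex V in BMSC-like cells, from 211 and 200 to 419 and 437 normalised CPM (1.06 ± 0.10, adjusted p = 0.000243), and its share of the subunit c UMIs there went from 49.5% and 50.9% to 55.9% and 58.5%. It rose in endothelial-like cells as well, from 162 and 166 to 253 and 244 normalised CPM (0.60). Atp5g3 rose in 5 classes, by 0.36 in osteoblast-like and 0.53 in fibroblast-like cells, the latter from 144 and 149 to 209 and 214 normalised CPM. Atp5g2 made up at most 1.68% of subunit c in every stromal class and was called in none.

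In fibroblast-like cells the rises were those of Atp5d, the delta subunit (278 and 267 to 408 and 384 normalised CPM, 0.54, adjusted p = 0.0287), Atp5g3, Atp5o, Sdhb (85.7 and 93.7 to 128 and 122, 0.49, adjusted p = 0.0307) and Ndufc2. In the same cells the chondrocyte markers stood at 2312 and 1350 CPM in the Control against 10539 and 9385 CPM, and the fibroblast markers at 18152 and 20533 against 6525 and 6871 CPM. Their part in these changes was not tested. Atp5e rose in BMSC-like (0.71) and endothelial-like cells (0.60). In chondrocyte-like cells it was at 556 and 620 against 579 and 770 normalised CPM (0.20), where the groups overlapped.

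The subunits encoded by mitochondrial DNA did not follow those of the nucleus, except in smooth muscle-like cells. There the median log2 fold change was below 0 for both, at −0.91 and −0.10. The tables held 11 mitochondrially encoded subunit genes. Their sum was lower in both Fracture preparations than in both Control preparations of every class, from 21855 and 19342 to 14538 and 14630 CPM in chondrocyte-like cells (log2 ratio −0.50) and, in smooth muscle-like cells, 48310 and 36308 against 22104 and 22691 CPM (−0.92). In BMSC-like cells it was 31204 and 24485 against 22575 and 22547 CPM (−0.30), in osteoblast-like cells 25708 and 23724 against 18435 and 18261 CPM (−0.43), and in fibroblast-like and endothelial-like cells the log2 ratios were −0.20 and −0.17. The ratio of the nuclear to the mitochondrial sum was therefore higher in both Fracture preparations in all 6 classes, for example 0.488 and 0.605 against 0.861 and 0.906 in BMSC-like cells and 0.510 and 0.627 against 0.948 and 1.04 in smooth muscle-like cells. Gene by gene, 7 of 8 tested fell in smooth muscle-like and in osteoblast-like cells, 5 of 9 in chondrocyte-like and 1 of 8 in endothelial-like cells. The shares of all genes that fell were 16.3%, 12.3%, 21.7% and 19.5% in the same order, and the endothelial-like count was not above that background. In BMSC-like cells the adjusted p of the 8 tested ran from 0.216 to 0.779 and in fibroblast-like cells from 0.1 to 0.756. The largest fall named here was that of mt-Nd4, a proton-pumping subunit of complex I, from 10774 and 7371 to 4324 and 4333 normalised CPM in smooth muscle-like cells (−1.07, adjusted p = 0.00409). Mitochondrial transcripts also mark damaged cells. The filters removed 1296 and 803 Control barcodes against 1 and 2 Fracture barcodes for exceeding the mitochondrial limit of 25%. The groups were not alike before these filters, so these counts are not like for like. The smallest barcode held 1 UMI in the Control and 1929 UMIs in the Fracture group. Barcodes with too few genes numbered 1259 and 548 in the Control against 3 and 10 in the Fracture preparations. The part of cell damage and of this unlike start in the difference of the mitochondrial sums was not tested.

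**Figure D4:**
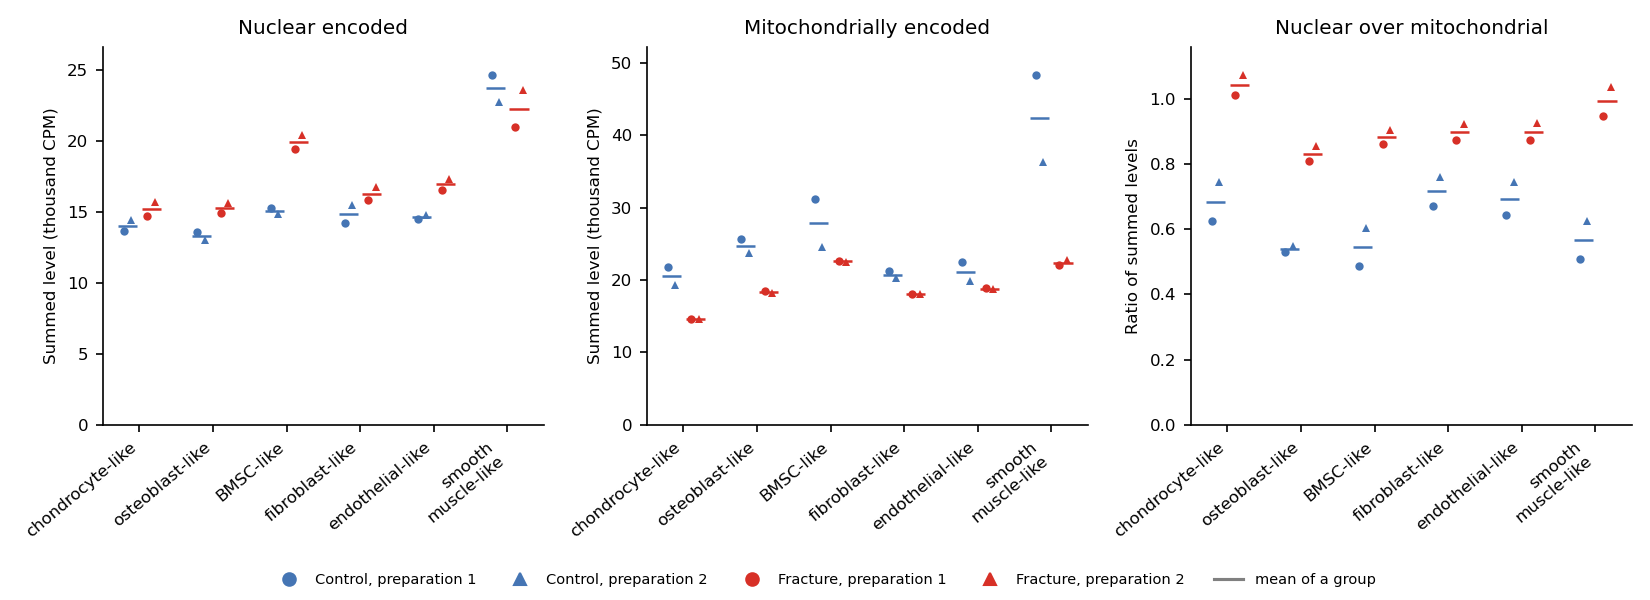
Summed plain CPM of the nuclear-encoded names (left), of the 11 mitochondrially encoded subunits (middle) and the ratio of both sums (right) by class, with 1 point per preparation and a bar at each group's mean. The ratio lies higher in both Fracture preparations than in both Control preparations in all 6 classes, and the smooth muscle-like drop of the mitochondrial sum is the steepest.

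Single cells were compared by the share of their UMIs that these transcripts took. The median share of a cell's UMIs was 1.42% and 1.41% in Control and 1.88% and 1.99% in Fracture BMSC-like cells. After each cell was thinned to 2000 UMIs, which left out 374 and 136 Control cells and no Fracture cell, it was 1.45% and 1.4% against 1.9% and 2%. It was 1.41% and 1.42% against 1.64% and 1.72% in endothelial-like cells, and overlapped in smooth muscle-like cells (2.46% and 2.10% against 2.07% and 2.43%). In BMSC-like cells the rise was present with and without Adipoq, a marker of marrow stromal cells. Cells with an Adipoq UMI were 1848 of 2630 and 1352 of 1723 in the Control but 80 of 1053 and 120 of 1131 in the Fracture preparations, so the makeup of the class differed between the groups. Among cells with an Adipoq UMI 22 of 76 members rose and none fell (16.8% of all genes called), and among cells without one 49 of 77 rose and 1 fell (46.2% called). The sum of the mitochondrially encoded subunits overlapped between the groups in cells with an Adipoq UMI (27116 and 21220 against 21043 and 22128 CPM). It was lower after fracture in cells without one (38952 and 35182 against 22673 and 22585 CPM). Cells with a UMI of Top2a or Mki67, which mark dividing cells, made up 10.0% and 11.9% of BMSC-like Control and 29.5% and 29.9% of Fracture cells. With these cells taken out, 56 members were called in place of 55, and the log2 ratio of the sums was 0.35. In endothelial-like cells the dividing share was 8.74% and 14.2% in the Control against 31.4% and 33.5% in Fracture. The haemoglobin genes of this class went from 1065 and 202 CPM to 3760 and 3981 CPM, and their part in its rise was not tested. The dividing share of smooth muscle-like cells was 7.39% and 8.49% against 30.9% and 32.6%, and without those cells 8 members were called in place of 14. The haemoglobin genes stood there at 58.7 and 136 CPM in the Control and 4804 and 5072 CPM in Fracture, and all 7 chondrocyte markers together at 1307 and 1001 against 14936 and 9300 CPM. The markers of smooth muscle itself went from 36619 and 36728 to 18187 and 19596 CPM. The part of these differences in the falls was not tested. The share of all genes called without dividing cells is not given beside the counts of 56 and 8 members.

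Other mitochondrial and metabolic genes give the setting, and their counts are to be read beside the shares of all genes that rose and fell in each class, given above. Of 17 glycolysis genes 15 rose in BMSC-like cells, 12 in endothelial-like cells, 10 in chondrocyte-like cells and 9 each in osteoblast-like and fibroblast-like cells, and 7 of 15 tested rose in smooth muscle-like cells. In every class the median fold change of glycolysis, from 0.49 to 1.07, was above that of the oxidative phosphorylation members. Ldha, which makes lactate, went from 248 and 198 to 790 and 716 normalised CPM in BMSC-like cells (1.75), and Aldoc, an aldolase, rose in 5 classes. Of 16 genes of the tricarboxylic acid cycle 10 rose in BMSC-like cells and 5 in chondrocyte-like cells, while 6 fell in smooth muscle-like cells, among them Idh3g, a subunit of isocitrate dehydrogenase, from 150 and 117 to 81.3 and 74.4 normalised CPM (−0.80).

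Of 10 hypoxia response genes 8 rose in chondrocyte-like cells, with Adm, which encodes adrenomedullin, at 0.565 and 1.15 against 18.2 and 14.6 normalised CPM (4.46). In BMSC-like and endothelial-like cells 6 rose and 2 fell, and in osteoblast-like cells 2 of 8 rose and 3 fell. The summed level of this list was nevertheless lower in both Fracture preparations of endothelial-like (574 and 521 against 430 and 430 CPM) and BMSC-like cells (351 and 357 against 341 and 317 CPM), where Ndrg1, a stress-induced gene with a high level, fell in both. Mitochondrial ribosome genes rose in 53 of 74 cases in BMSC-like cells, 41 of 73 in endothelial-like cells, 31 of 74 in chondrocyte-like, 11 of 73 in fibroblast-like, 4 of 73 in smooth muscle-like and 3 of 73 in osteoblast-like cells. Cytosolic ribosome genes rose in 75 of 81 cases in BMSC-like, 46 of 81 in endothelial-like and 35 of 79 in smooth muscle-like cells. In chondrocyte-like cells 7 rose and 5 fell of 83, in osteoblast-like cells 2 rose and 6 fell of 84, and in fibroblast-like cells 2 rose and 3 fell of 81. Genes of mitochondrial import rose in 19 of 21 cases in BMSC-like cells, with Timm50 from 35.3 and 32.3 to 63.3 and 64.3 normalised CPM (0.92), and in 12 of 21 in endothelial-like cells. Assembly factors were mixed, with 14 rising and 3 falling of 36 in BMSC-like cells and 4 rising and 8 falling of 37 in chondrocyte-like cells. Higd1a, a supercomplex factor induced by hypoxia, had their largest rise, from 63.4 and 60.9 to 139 and 168 normalised CPM in BMSC-like cells (1.30). Epas1, the hypoxia-inducible factor HIF-2α, was listed beside the regulators of mitochondrial biogenesis. It fell in BMSC-like cells from 501 and 730 to 62.1 and 74.8 normalised CPM (−3.17) and in endothelial-like cells (−1.26), while it rose in chondrocyte-like cells (0.86). Ppargc1b, a coactivator of respiration genes, fell in smooth muscle-like cells from 21.6 and 27.8 to 8.32 and 9.68 normalised CPM (−1.4).

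The other lists describe the state of the cells. All 5 tested proliferation genes rose in BMSC-like, fibroblast-like, endothelial-like and smooth muscle-like cells, and 3 fell in chondrocyte-like cells. Genes of dissociation stress rose in 9 of 9 cases in BMSC-like and 7 of 9 in osteoblast-like cells, with Atf3 of osteoblast-like cells from 17.2 and 25 to 225 and 238 normalised CPM (3.47). Their part in the differences of the subunits was not tested.

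**Figure D5:**
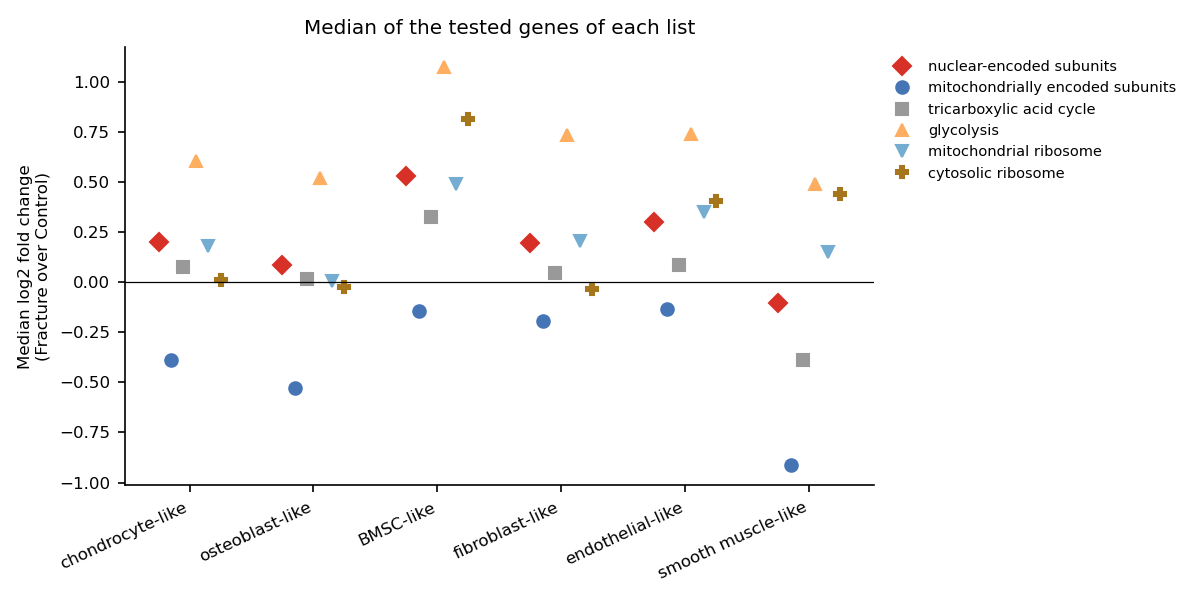
Median log2 fold change, Fracture over Control, of the tested genes of 6 lists in each cell class, where 0 means no change. The glycolysis median lies above that of the nuclear-encoded subunits in every class, and the mitochondrially encoded subunits lie below 0 in every class, lowest in smooth muscle-like cells.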

How the data were processed

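Single-cell libraries (10x Chromium 3′ V3, poly(A) RNA) of bone stromal cells were sequenced by the authors. Per the labels, reads were processed with bcl2fastq 2.19.1.403, UMI-tools 1.0.0, STAR 2.7.3a and featureCounts 1.6.4 on build mm10. What was deposited is a count of UMIs for each gene in each barcode, not normalised. The methods of the study instead name STARsolo with GENCODE M23 and a pre-filter by EmptyDrops. Which of these made the tables is not stated, nor is the strand setting. The smallest barcode held 1 UMI in the Control and 1929 UMIs in the Fracture tables.

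Cells with 500 to 6000 genes and at most 25% mitochondrial UMIs were kept, with genes found in at least 3 cells. Clusters were built with Seurat 5.3.0 from 2000 variable genes, of which 79 (genes compared here or of the cell cycle) were taken out (integration anchors, 30 dimensions, 12 principal components, resolution 0.1), and named from markers. Doublets called by scrublet (521, 1.15% of cells) stayed in, and alternatives took them out. Counts were summed by class and preparation, so n = 2 per group, where an exact permutation test of a single value could not reach the 0.05 threshold. Each class was fitted over all genes with edgeR 4.0.16 (TMM, low-count filter, quasi-likelihood test, Benjamini-Hochberg adjustment over all genes), and members were called at an adjusted p under 0.05. A joint fit over the 6 classes, with the preparation as a block, tested whether the fracture effect differed between them. The fits were tested on simulated data. Normalised CPM are scaled by TMM, and other CPM are plain. Binomial intervals are exact (95%) and cover counting error only.

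No symbol beginning with a capital U had an entry in either library of Control preparation 1, so all 290 such symbols were left out of totals, filters, clusters and fits in every library. This was decided after the files were seen. The members and lists were chosen with earlier results of these data known. Genes were named by a rule: for each class up to 3 rises and 3 falls called with the largest fold change, a mean of at least 20 CPM and no overlap between groups, every member of an isoform group, Cycs, Cyc1 and the complex II subunits, the member of each complex with the highest mean, the 5 smallest p between classes, and the largest called change of each other list. Other names were chosen after their values were seen. Alternatives were DESeq2 1.42.0, no low-count filter, a replicate block, other cell filters, removal of doublets or dividing cells, no integration and leaving out each preparation.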

Additional observations from a re-analysis of the deposited data

Results flagged for a closer look

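The fracture effect differed between the 6 stromal classes, by the joint edgeR test with Benjamini-Hochberg adjustment over all genes, for 69 of the 80 members tested, beside 61.8% of all genes. The values given here are those of the 30 among them that the rule for named genes selects. Part of that rule is a small p in this same joint test. This part takes Cycs, Cox6a1, Ndufa5, Cox8a and Sdhc, so their small p-values are no separate finding. Their adjusted p was 1.47e-07, 6.35e-07, 1.02e-06, 4.22e-06 and 4.58e-06 in that order. Ndufa4l2 (adjusted p = 2.08e-05), Cox4i2 (adjusted p = 9.71e-05) and Ndufa12 (adjusted p = 0.000155) were named by other parts of the rule. Cox6c had an adjusted p of 8.24e-06 but is not among the 30, so these are not a ranking of all members. Calls without a Fracture preparation are not used here, since such fits leave 1 preparation in that group. Cycs had a log2 fold change of 1.04 in BMSC-like and −0.29 in osteoblast-like cells, and Ndufa5 one of 0.56 in BMSC-like and −0.57 in smooth muscle-like cells. Ndufa4l2 ran from 0.26 in fibroblast-like to 4.09 in endothelial-like cells.

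Among the other members of complexes I and II the adjusted p was 2.84e-05 for Ndufa8, 0.000123 for Ndufb5, 0.000675 for Ndufab1, 0.0015 for Ndufa13, 5.74e-05 for Sdha, 0.000439 for Sdhb and 0.00677 for Sdhd. For Cyc1 of complex III it was 0.000109. In complex IV it was 5.25e-05 for Cox7a2, 0.00055 for Ndufa4, 0.000694 for Cox7a2l, 0.000969 for Cox7b, 0.00273 for Cox4i1, 0.0043 for Cox6b1, 0.022 for Cox6b2 and 0.0432 for Cox8b, whose levels are under 1 CPM. In complex V it was 3.87e-05 for Atp5g1, 6.95e-05 for Atp5d, 0.000202 for Atp5o, 0.000234 for Atp5e, 0.00544 for Atp5g2 and 0.0336 for Atp5g3. Sdha was below 0 in all 6 classes, from −0.04 in osteoblast-like to −0.80 in smooth muscle-like cells, so its difference is one of size.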

How the results depend on the processing

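The sums and the 28 changes of named genes that were recomputed (the largest called in each class) kept their direction under every alternative run. These 28 were picked for groups that did not overlap, and the sums overlapped in smooth muscle-like cells only. Leaving out a preparation could therefore hardly turn them, and those runs are no evidence of stability. Of the members called, 52 of 55 in BMSC-like cells kept theirs without integration and 9 of 10 in osteoblast-like cells without dividing cells, and those of the other fits all did. Leaving out each preparation moved the members called from 32 to between 21 and 38 in chondrocyte-like, from 10 to between 4 and 24 in osteoblast-like, from 55 to between 44 and 69 in BMSC-like, from 6 to between 0 and 22 in fibroblast-like, from 34 to between 9 and 48 in endothelial-like and from 14 to between 1 and 15 in smooth muscle-like cells. The 0 of fibroblast-like cells came without either Fracture preparation, where edgeR gave 6 and 3 members at an unadjusted p under 0.05, and DESeq2 on all preparations called 4. In smooth muscle-like cells 7 were called without Control preparation 1. The 69 members whose effect differed between classes became 11 without Fracture preparation 1, 18 without Fracture preparation 2, 63 without Control preparation 1 and 73 without Control preparation 2. Without integration the calls were 18 in osteoblast-like, 10 in BMSC-like, 16 in fibroblast-like and 9 in smooth muscle-like cells, and the log2 ratios of the sums 0.26, 0.31 and 0.24 in the first 3. Without a low-count filter the calls were 50 in chondrocyte-like cells and, among fibroblast-like cells, 19. In smooth muscle-like cells DESeq2 called 4, and 8 were called without dividing cells, where the BMSC-like sum differed by 0.35. Removing the highest doublet scores gave 0.26 for the endothelial-like sum. Scaling by TMM gave sums of 0.27 in chondrocyte-like, 0.12 in osteoblast-like, 0.59 in BMSC-like, 0.21 in fibroblast-like and 0.33 in endothelial-like cells. The cause of these shifts was not tested. The shares of all genes called in these alternatives are not given here, so the counts do not set the members apart from other genes. Of these 28 changes, 17 lost their call without Fracture preparation 1, 11 without Fracture preparation 2, 7 with DESeq2 and 6 without integration, and none when called doublets were removed, with a higher UMI minimum per cell or without mitochondrially encoded UMIs.

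Same-numbered preparations share only a number. Their deviations from the group means correlated at 0.01 to 0.15 over the classes. A replicate block gave 45, 19, 60, 9, 41 and 16 calls in chondrocyte-like, osteoblast-like, BMSC-like, fibroblast-like, endothelial-like and smooth muscle-like cells. In chondrocyte-like cells the block called 7503 of 17062 genes, and for the other classes the share of all genes is not given here. The rarer classes rest on few cells, with 175 smooth muscle-like cells in each Fracture preparation.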

Other observations

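The 3 blood clusters were left out of the comparisons above and are given as values. Erythroid-like cells held 24213 and 28583 CPM of the nuclear-encoded names in the Control and 23945 and 25485 CPM in the Fracture preparations, a range that overlaps that of smooth muscle-like cells. Granulocyte-like cells held 20436 and 20414 against 21517 and 22824 CPM, from 93 and 89 Fracture cells. Megakaryocyte-like cells held 9494 and 7810 against 13624 and 8540 CPM, from 20 and 21 Fracture cells. Cox6b2, named for testis, made up 27.2% and 22.0% of the Cox6b UMIs in erythroid-like Control and 20.1% and 17.2% in Fracture cells (735 of 2702, 5035 of 22924, 266 of 1326 and 364 of 2113 UMIs), against 0.47% to 7.64% in the stromal classes. Cox6a2, the form of heart and skeletal muscle, made up 2.04% and 1.94% of the Cox6a UMIs in granulocyte-like Control cells (172 and 81 UMIs) and 0.719% and 7.91% in Fracture cells, with skeletal muscle markers at 9.02 and 10.7 CPM in the Control.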
